A study of Homo sapiens with 6 samples.

Results

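Heat shock proteins and their DNAJ cochaperones, chiefly those of the cytosol and mitochondria, were examined in MDA-MB-231 cells. This established triple-negative breast cancer line was studied after forced expression of the RNA editing enzyme ADAR1. The genes were taken by name from the protein-coding rows of the gene table: the HSPA (HSP70) and HSPB (small heat shock protein) families, HSPH1, the chaperonin genes HSPD1 and HSPE1, HSP90AA1 and HSP90AB1, and the DNAJA and DNAJB families. HSPA5, DNAJB9 and DNAJB11, which act in the endoplasmic reticulum, were left out of this set. It held 40 of the 60461 genes in the table, and 31 of the 40 had enough reads to be among the 18899 genes tested.

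Both groups were MDA-MB-231 cells carrying an adenovirus at a multiplicity of infection of 200. In the ADAR1 p110 group (3 libraries) the virus coded for p110, the shorter and mainly nuclear form of ADAR1, and in the GFP group (3 libraries) it coded for eGFP. Medium was renewed at 16 h and RNA was extracted at 48 h in both, so every library, controls included, comes from transduced cells, and cells without virus were not analysed here. The labels number the cultures as biological replicates without saying how they were kept apart, so the p-values below reflect no more than the scatter among the 6 libraries, part of which may be technical.

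Heat shock proteins bind unfolded proteins and keep them from aggregating. HSP70 proteins do so in cycles of ATP hydrolysis, in which J proteins (DNAJ) bring the substrate and start hydrolysis, and exchange factors of the HSP110 and BAG families release ADP. HSP90 acts later on signalling proteins such as kinases and steroid receptors, and HSPD1 with its lid HSPE1 folds proteins inside mitochondria. Many of these genes are induced by heat or misfolded protein through the transcription factor HSF1, which binds heat shock elements, inverted repeats of GAA, as a trimer, and tumour cells often keep them high without heat shock.

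The libraries held 72741235 to 99589278 gene counts. Levels are given as CPM, counts scaled by library size with the TMM method, and a count of 0 allows up to 0.0304 to 0.0414 CPM, which covers counting error only. ADAR was 3.76-fold higher in the ADAR1 p110 libraries, at 1006 ± 13.2 against 267 ± 8.67 CPM (SD, n = 3 each; edgeR adjusted p = 2.67e-09). VIM, a mesenchymal marker of this line, was at 1885 to 2320 CPM, the luminal receptor genes ESR1 and PGR reached at most 0.0827 and 0.0263 CPM, and the T cell gene CD3E had 0 counts in each library. Other genes of these lists had reads. Of 6 luminal genes 4 were tested, with EPCAM at 10.6 ± 0.291 against 10.2 ± 0.0710 CPM and ERBB3 at 4.76 ± 0.521 against 4.37 ± 0.114 CPM. Of 5 leukocyte genes PTPRC alone was tested. Of 6 fibroblast and endothelial genes 4 were tested, with COL1A1 at 10.8 ± 1.44 against 13.9 ± 0.450 CPM. PDGFRB was the most abundant of these per kilobase of gene length. Their log2 fold changes ran from -0.36, that of COL1A1, to 0.31, and none was called. Of the marker lists, CAV1 of the line's own (879 ± 10.5 against 767 ± 21.1 CPM) and the epithelial gene CDH1 of the luminal list (4.15 ± 0.241 against 2.80 ± 0.0845 CPM) were called higher, and their part in the results below was not tested. ADAR1 p110 replicate 1 and GFP replicate 2 stood apart from the other 4 libraries on the second principal component, which carried 23.7% of the variance.

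Heat shock elements in the promoters of these genes are shown first. RefSeq promoters (GRCh38.p14, 250 bases before to 50 after each annotated start) were found for 36 of the 40 genes. These genes had 48 promoters, and a gene counted as holding a form if any of its promoters did. A run of 3 alternating units (GAANNTTCNNGAA, or TTCNNGAANNTTC as read on the other strand) was present in 7 of these 36 genes, or 19.4%, against 0.608% of the 27305 genes in the promoter table. The shorter form of 2 units (GAANNTTC or TTCNNGAA, each its own reverse complement, and contained in the longer form) was present in 20 of 36 genes, or 55.6%, against 16.2%. The 7 genes with 3 units were HSPA6, HSPA8, HSP90AA1, HSP90AB1, HSPD1, DNAJB6 and DNAJA1, the last with its match not wholly before the start site. A match is a stretch of letters and not a measured binding site. The stretches below are read 5′ to 3′ along the gene and end before the start site, with the elements in capitals. They were chosen because HSPA6 is the gene called in the comparison, HSPA1A, HSPA1B and DNAJB1 are 3 of the other 9 members listed as heat-induced and are described next to it, and HSPA8, HSP90AB1 and HSPD1 are abundant genes with the 3-unit form. The letters do not fully separate heat-induced from constitutive members. Among those listed as heat-induced, HSPH1 holds neither form in its promoter. Each of the others holds at least the shorter one in some or all of its promoters. Other members differ, since HSPA4 holds neither form, while HSPA9 holds the shorter one in a match not wholly before the start site.
HSPA6 (3 units, plus strand, chr1:161524441-161524503): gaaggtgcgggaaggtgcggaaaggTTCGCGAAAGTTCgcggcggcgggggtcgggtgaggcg
HSPA1A (2 units, plus strand, chr6:31815412-31815469): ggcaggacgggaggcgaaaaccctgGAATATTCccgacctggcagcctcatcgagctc
HSPA1B (2 units, plus strand, chr6:31827608-31827665): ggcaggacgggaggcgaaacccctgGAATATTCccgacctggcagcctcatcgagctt
DNAJB1 (2 units, minus strand, chr19:14518412-14518469): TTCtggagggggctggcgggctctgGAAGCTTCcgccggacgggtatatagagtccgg
HSPA8 (3 units, minus strand, chr11:123062154-123062216): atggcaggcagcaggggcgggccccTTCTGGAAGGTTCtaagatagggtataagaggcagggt
HSP90AB1 (3 units, plus strand, chr6:44247806-44247868): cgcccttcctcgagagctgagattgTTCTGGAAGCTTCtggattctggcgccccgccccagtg
HSPD1 (3 units, minus strand, chr2:197500043-197500090): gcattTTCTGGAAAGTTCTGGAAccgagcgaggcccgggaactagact

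The HSPA6 element lies 74 to 62 bases before the start, and that of HSPA8 55 to 43 bases before it. The capitals at the left end of the DNAJB1 stretch are the last letters of a second match, and in HSPD1 a pair of 3-unit matches overlap. The element of HSPA1A also lies 161 to 154 bases before the start of HSPA1L, which is read from the opposite strand. HSPA1A and HSPA1B share 56 of the 58 bases shown, and 1919 of 1923 bases of their coding sequence (GENCODE v44 on GRCh37). Reads within their coding sequence could thus be split between them unevenly or left out of the counts.

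Chaperone genes were abundant in both groups and differed little between them. Together the 40 genes took 1.00% to 1.08% of all counts in the 6 libraries. A single gene was called by edgeR's quasi-likelihood test with Benjamini-Hochberg adjustment over all tested genes. It was HSPA6, a strictly stress-induced HSP70, which was 1.74-fold higher with ADAR1 p110. None was called lower, although HSP90AB1 and HSPA4L had an unadjusted p under 0.05 in that direction, as did HSPA6, HSPA2, HSPA1A and DNAJB1 in the other. The share of all tested genes under that unadjusted cut is not given here. DESeq2's Wald test also called HSPA6 higher and 0 members lower. It called 3.13% of all 18899 genes higher and 3.76% lower. Over only the genes to which it gave an adjusted p, its calls in both directions came to 8.55%. EdgeR called 1.95% of all 18899 genes higher and 2.96% lower, so 1 higher and 0 lower of 31 is a share near that background. The median log2 fold change was -0.05 over the 31 tested members (-0.024 without GFP replicate 3, -0.035 without GFP replicate 1 and -0.030 with library size alone) and 0.00 over all tested genes, and 20 of the 31 estimates lay below 0 (18 when libraries were scaled by their totals alone), as did 48.8% of all.

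**Figure D1:**
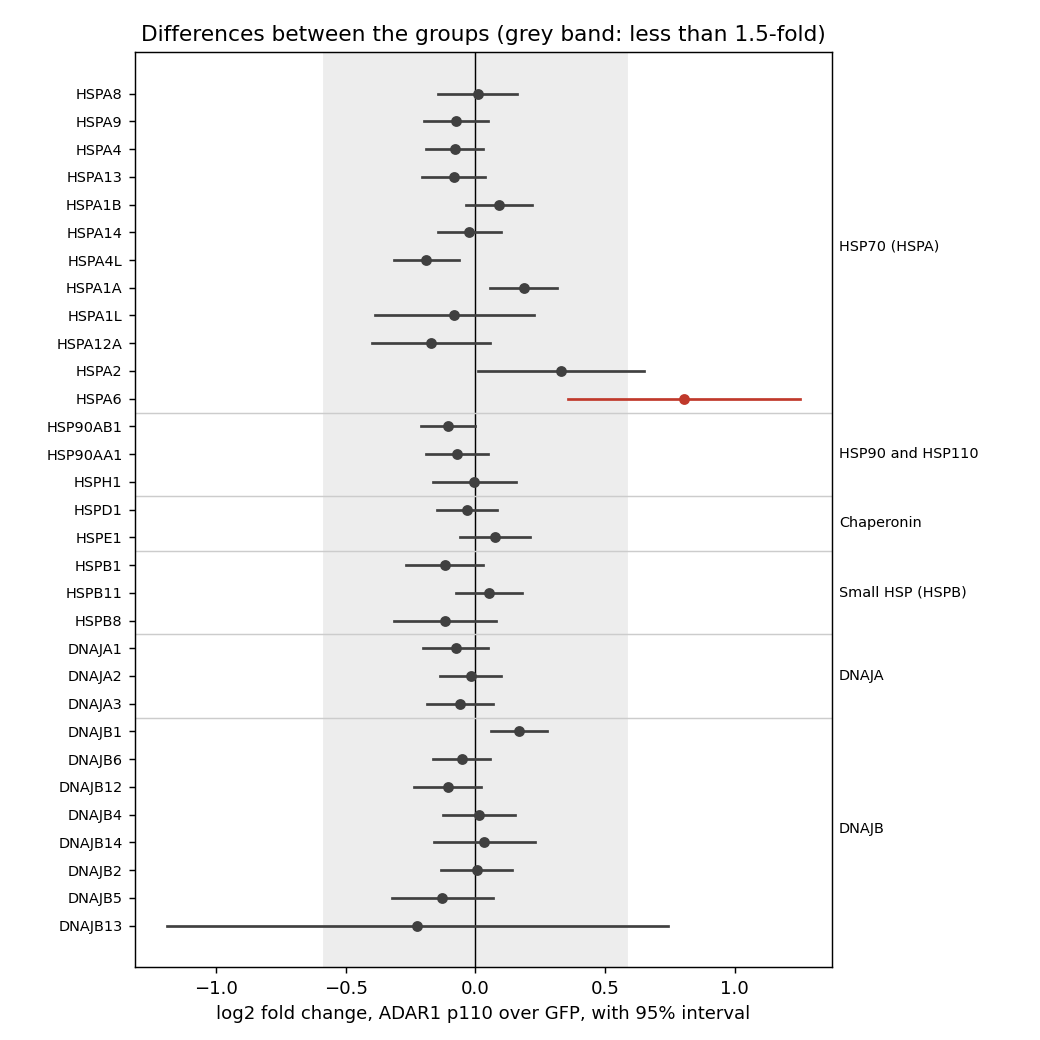
Difference between ADAR1 p110 and GFP on the log2 scale (horizontal axis) with its unadjusted 95% interval for the 31 tested chaperone genes, grouped by family, with HSPA6, the called gene, in red and differences under 1.5-fold shaded. In 28 of the 31 genes the whole interval lies inside the shaded band, and HSPA6, HSPA2 and DNAJB13 are the exceptions.

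The intervals bound what these libraries could have missed. The 95% interval of the fold change, not adjusted for the number of genes, lay wholly within 1.5-fold in either direction for 28 of the 31 genes, as it did for 64.8% of all tested genes. HSPA6, HSPA2 and DNAJB13 were the exceptions, none above 2.12 CPM in any library, while HSPA1L, at 1.84 to 2.28 CPM, lay within the band. Being tested required reads in enough libraries, and the other 9 members are described at the end of the results.

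HSPA6 encodes HSP70B′, a human HSP70 that is nearly silent without stress. HSPA6 (ENSG00000173110.7_3, hg19 chromosome 1, 161494330 to 161496700, plus strand) was covered by 91, 111 and 72 counts in the ADAR1 p110 libraries, in replicate order, and by 54, 50 and 55 in the GFP libraries. The levels of HSPA6 were 1.20, 1.13 and 0.931 CPM against 0.622, 0.689 and 0.559 CPM. All 3 ADAR1 p110 libraries lay above all 3 GFP libraries, as they did for 11.8% of all tested genes. The means were 1.09 ± 0.138 and 0.623 ± 0.0651 CPM (SD, n = 3 each), which is 0.80 on the log2 scale (SE 0.203, 95% interval of the fold 1.28 to 2.38, edgeR adjusted p = 0.0485). This call sat at the threshold. It was lost without any of the 6 libraries in turn (adjusted p between 0.0740 and 0.171), with limma-voom (0.0525), with the replicate number as a block (0.109) and without the pair of libraries set apart on the second component (0.0635), while the log2 fold change stayed between 0.73 and 0.90. HSPA7, a neighbouring gene in the same family and close in sequence to HSPA6, had 1 to 6 counts per library, and adding them to HSPA6 gave 0.71 with an adjusted p of 0.0745.

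HSPA1A and HSPA1B encode HSP72, the main heat-induced HSP70, and lie near each other on chromosome 6. HSPA1A had 28.5, 26.5 and 26.6 CPM in the ADAR1 p110 libraries and 23.7, 23.6 and 24.4 CPM in the GFP libraries. The groups of HSPA1A did not overlap, at a difference of 0.19 on the log2 scale (SE 0.059), and it was not called (edgeR adjusted p = 0.107). HSPA1B was more abundant, at 73.1, 80.2 and 76.6 CPM against 75.9, 69.2 and 70.7 CPM. Its groups overlapped, at a log2 difference of 0.09 (edgeR adjusted p = 0.450). With both genes summed, which removes any uneven split of counted reads but recovers none left uncounted, the log2 fold change was 0.12 (edgeR adjusted p = 0.253).

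DNAJB1, the J protein known as HSP40 and a heat-induced partner of HSP70, was likewise above the GFP range in every ADAR1 p110 library without being called. DNAJB1 (hg19 chromosome 19, 14625582 to 14640582, minus strand) had 141, 143 and 148 CPM with ADAR1 p110 and 131, 123 and 131 CPM with GFP. The 3 ADAR1 p110 libraries were the 3 highest, at 144 ± 3.15 against 128 ± 4.17 CPM. Its log2 fold change was 0.17 (SE 0.049, edgeR adjusted p = 0.0850). DNAJB1 was called higher without ADAR1 p110 replicate 1 (0.18, adjusted p = 0.0364), without both libraries set apart on the second component (0.16, adjusted p = 0.0149) and with library size alone (0.19, adjusted p = 0.0446). In that order these settings called 9.19%, 13.4% and 5.23% of all tested genes, against 4.91% in the main analysis. On the other strand DNAJB1 overlaps TECR, with 28.4% of its count total, and whether strand was used in counting is not given in the sources used here.

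The other heat-induced members had estimates near or below 0, and none was called. HSPH1, the inducible HSP110 that exchanges nucleotide on HSP70, was at 138, 116 and 126 CPM against 121, 137 and 123 CPM. Its groups overlapped, and its log2 fold change of -0.0049 had an interval of -0.16 to 0.15. HSP90AA1, the inducible HSP90, had 1388, 1289 and 1421 CPM with ADAR1 p110 and 1390, 1490 and 1424 CPM with GFP, with a log2 fold change of -0.07 (interval -0.19 to 0.05). DNAJA1, a cytosolic J protein with a farnesyl anchor, gave -0.08 and HSPB1, the small heat shock protein HSP27, -0.12. Without ADAR1 p110 replicate 1 these were -0.026 and -0.054. DNAJB4, a close relative of DNAJB1, gave 0.01. HSPA4L, an HSP110-type exchange factor, lay on the other side. Its levels were 106, 93.4 and 98.2 CPM against 110, 115 and 114 CPM, all 3 ADAR1 p110 libraries below all 3 GFP libraries, as in 12.2% of all tested genes. Its log2 fold change of -0.19 (SE 0.057) was not called (edgeR adjusted p = 0.0932), but was called at -0.24 without ADAR1 p110 replicate 1 (adjusted p = 0.00930) and at -0.22 without both libraries set apart (adjusted p = 0.00227). Those 2 settings called 9.19% and 13.4% of all tested genes. Of 10 members listed as heat-induced, 1 was thus called higher and 0 lower, with a median log2 fold change of 0.00, 3 having every ADAR1 p110 library above the GFP libraries and 1 every library below. Among all tested genes these shares were 1.95% called higher, 2.96% called lower, 11.8% above and 12.2% below.

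**Figure D2:**
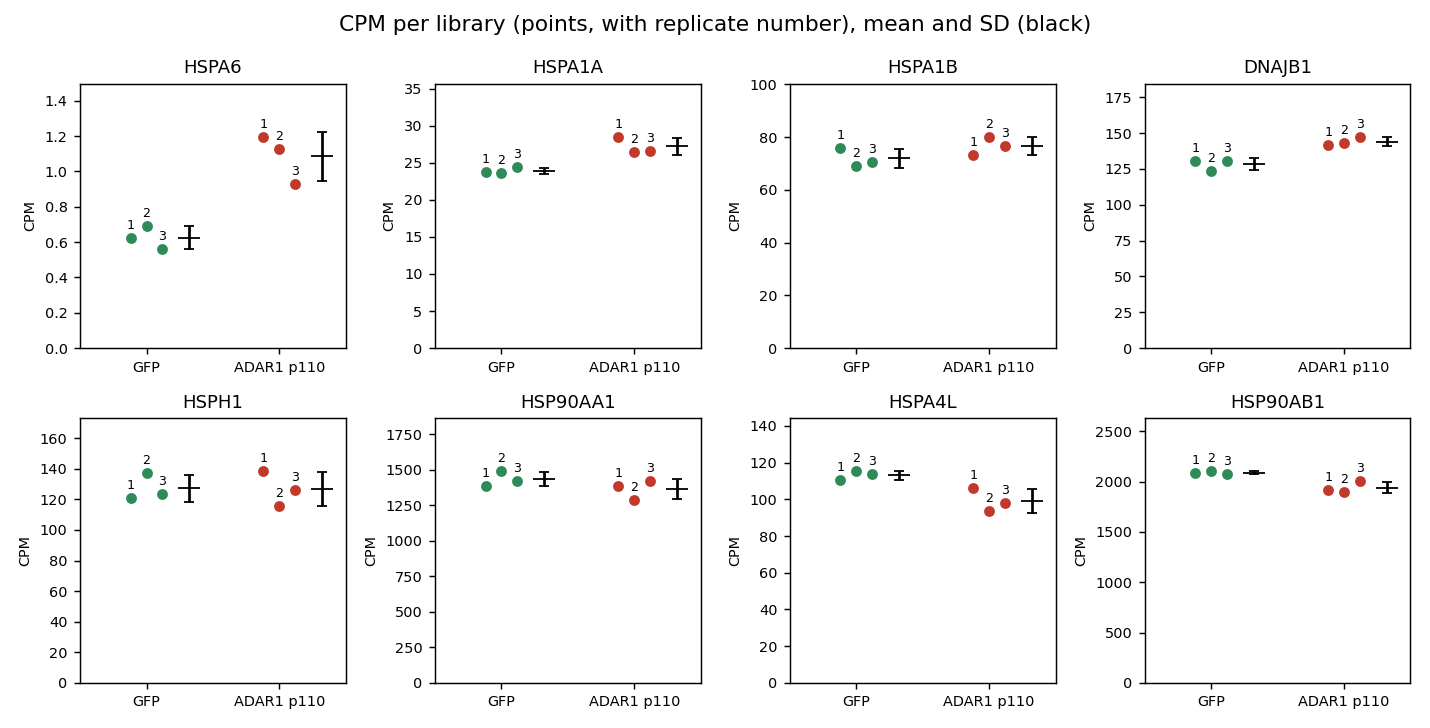
CPM of 8 chaperone genes in each library, with GFP in green, ADAR1 p110 in red, replicate numbers above the points, and the mean and SD in black (n = 3 per group), each vertical axis starting at 0. HSPA6, HSPA1A and DNAJB1 are higher and HSPA4L and HSP90AB1 lower in every ADAR1 p110 library, while HSPA1B, HSPH1 and HSP90AA1 overlap.

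Constitutive chaperones held most of the reads. Per kilobase of gene length, the scale on which different genes are compared here, the most abundant genes in the GFP libraries were HSP90AB1 at 700 ± 5.08 and HSPA8 at 650 ± 21.3 CPM per kilobase. HSP90AA1 followed at 273 ± 9.74, HSPD1 at 186 ± 5.74, DNAJA1 at 168 ± 5.20 and HSPA9 at 129 ± 1.87 CPM per kilobase (SD, n = 3). HSPA1B stood at 28.5 ± 1.40, HSPA1A at 9.62 ± 0.175 and HSPA6 at 0.263 ± 0.0275 CPM per kilobase on this scale. The levels of HSPA1A and HSPA1B could be too low, since the treatment of reads that align to both is not given. Of the 30 neighbouring pairs in this order, 7 had a gap smaller than the sum of their SDs and so did not differ beyond their spread. They were HSPA13 and DNAJB1, HSPA1B and HSPE1, DNAJA2 and DNAJB6, DNAJB12 and HSPH1, HSPB11 and HSPA14, HSPA4L and HSPA1A, and HSPA2 and HSPA6.

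**Figure D3:**
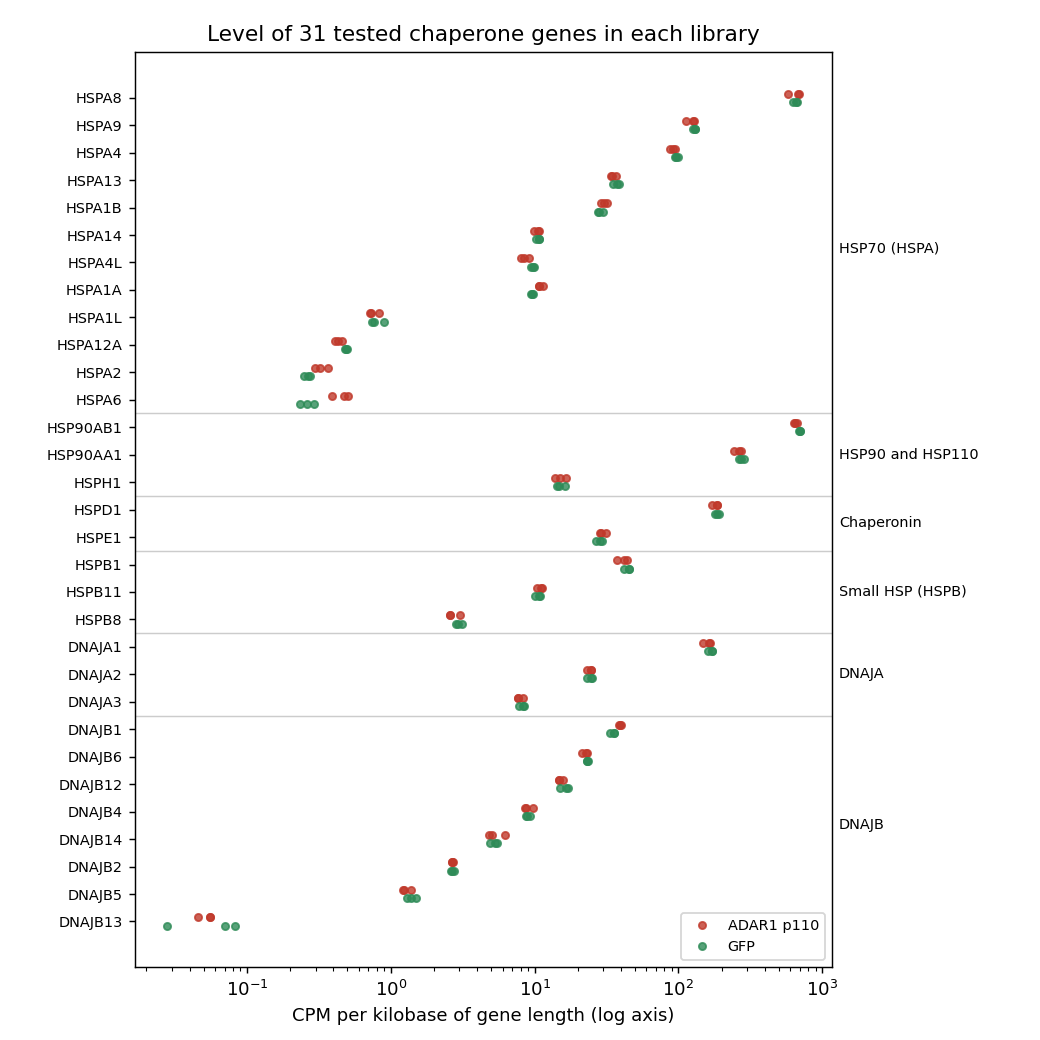
Level of the 31 tested chaperone genes in each library, as CPM per kilobase of gene length on a logarithmic axis (red for ADAR1 p110, green for GFP), grouped by family and ordered by the GFP mean within it. Levels run from 0.0603 for DNAJB13 to 700 for HSP90AB1 in the GFP libraries, and the points of the 2 groups lie close together beside that range.

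HSPA8, the constitutive HSP70 of the cytosol that also uncoats clathrin vesicles, had 2826, 3309 and 3372 CPM in the ADAR1 p110 libraries and 3185, 3035 and 3232 CPM in the GFP libraries. The lowest value of HSPA8 belonged to ADAR1 p110 replicate 1 and the next lowest to GFP replicate 2, the pair of libraries set apart on the second component. Its log2 fold change was 0.01 (interval -0.14 to 0.16, edgeR adjusted p = 0.969). HSP90AB1, the constitutive HSP90, had 1918, 1897 and 2004 CPM against 2086, 2102 and 2072 CPM. Each ADAR1 p110 library of HSP90AB1 lay below each GFP library, and the difference of -0.11 on the log2 scale (SE 0.047) was not called (edgeR adjusted p = 0.266). HSPA4, the constitutive HSP110-type exchange factor, had a log2 fold change of -0.08, and HSPA13, an HSP70 without the usual substrate domain, also -0.08. HSPA14, a ribosome-associated HSP70, gave -0.02, and overlaps AC069544.2 on the same strand, which held 17.5% as many counts.

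In mitochondria, HSPD1 (HSP60) and HSPE1 (HSP10) form the folding chamber and its lid, and their genes lie head to head on chromosome 2. HSPD1 had 731, 790 and 793 CPM with ADAR1 p110 and 788, 766 and 814 CPM with GFP, a log2 fold change of -0.03. HSPE1 had 62.5, 56.4 and 57.2 CPM against 56.3, 52.8 and 58.0 CPM, a log2 fold change of 0.08. Both sets of values overlapped between the groups. The annotated spans of these genes overlap on opposite strands, and HSPE1 held 7.31% as many counts as HSPD1 in all, so reads in the shared stretch could have been assigned to either. HSPA9 (mortalin), the mitochondrial HSP70 that pulls in imported proteins, was at 541, 601 and 608 CPM against 620, 604 and 619 CPM. Its log2 fold change was -0.08, with ADAR1 p110 replicate 1 lowest, and it was -0.024 without that library. DNAJA3, its J protein partner, gave -0.06. Pseudogenes named after a member held 0.940% as many counts as HSPE1, 0.533% as many as HSPD1 and 0.0767% as many as HSPA8, and adding them changed no call.

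Among the remaining J proteins, the 6 tested DNAJB genes other than DNAJB1 and DNAJB4 had log2 fold changes of -0.22 to 0.03 and none was called. DNAJB6, which keeps polyglutamine proteins from aggregating, was at 336 ± 14.2 against 349 ± 4.14 CPM. DNAJB12 and DNAJB14, J proteins anchored in the endoplasmic reticulum membrane and facing the cytosol, gave -0.11 and 0.03. DNAJB12 was called lower only without both libraries set apart (-0.14, adjusted p = 0.0465), a setting that called 13.4% of all tested genes. DNAJB2 gave 0.01 and DNAJB5 -0.13. DNAJB13, a J protein of motile cilia and sperm flagella, had 7 to 25 counts per library and an interval of 0.438-fold to 1.67-fold, too wide to bound a change. DNAJA2 gave -0.02. The small heat shock proteins HSPB8, a partner of BAG3 in autophagy, and HSPB11, a component of ciliary transport, gave -0.12 and 0.05. Among low HSP70 genes, HSPA12A (-0.17) lay below and HSPA2 (0.33) above the GFP range in every library, neither being called, and HSPA1L gave -0.08. HSPA12A overlaps AC023283.1 on the same strand, which held 166% as many counts.

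**Figure D4:**
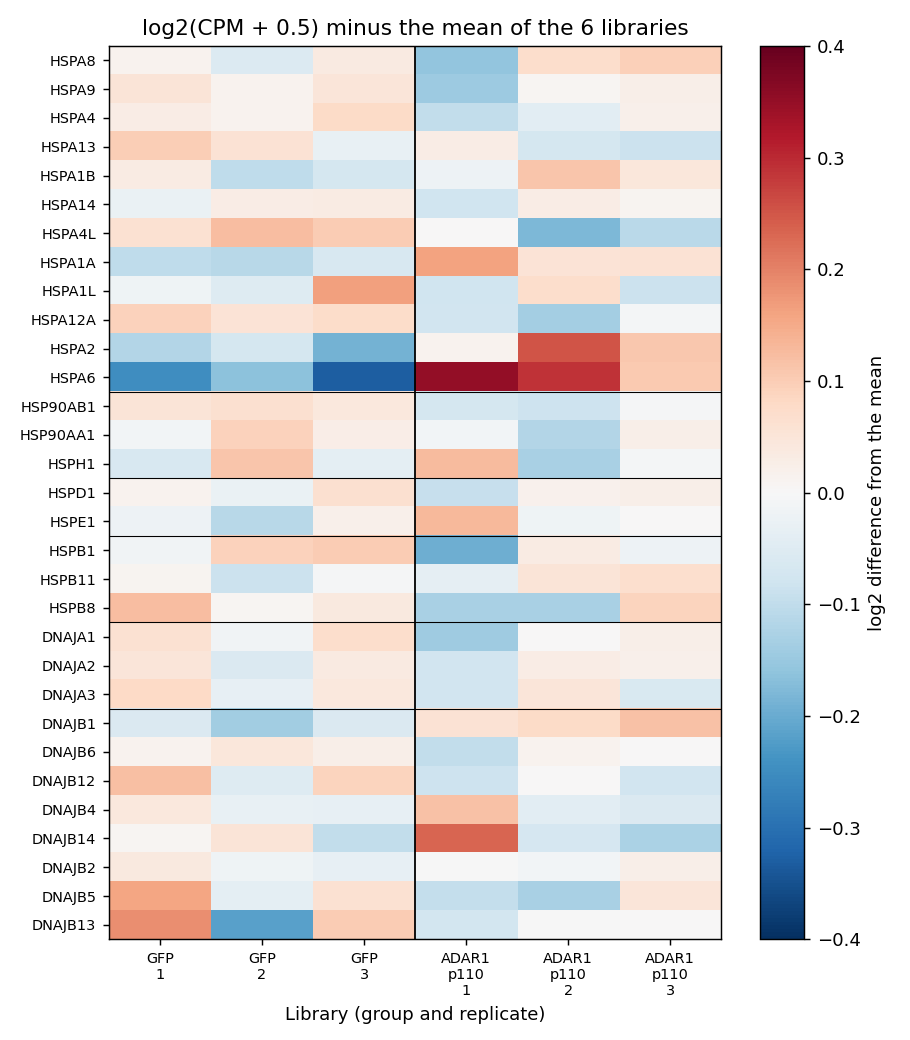
Log2(CPM + 0.5) of the 31 tested chaperone genes in each library minus the mean of the 6 libraries (colour, red above and blue below the mean), with genes in rows by family and libraries in columns. HSPA6 shows the deepest contrast between the groups, and ADAR1 p110 replicate 1 is lowest for 11 genes, HSPA8, HSPA9, HSPD1 and DNAJA1 among them.

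The members varied by library as well as by group. ADAR1 p110 replicate 1 had the lowest level of the 6 libraries for 11 of the 31 genes (35.5%), where it was lowest for 20.9% of all tested genes. GFP replicate 1 was lowest for 0 of the 31 and highest for 10 (32.3%), against 14.9% and 15.7% of all genes. The summed HSPA level was 4232 CPM in ADAR1 p110 replicate 1 and 4548 to 4869 CPM in the other 5 libraries. The sum over HSP90AA1, HSP90AB1 and HSPH1 was 3433 ± 125 against 3648 ± 71.0 CPM, with each ADAR1 p110 library below each GFP library. Of these 3 genes HSP90AB1 alone separated in this way, as did 12.2% of all tested genes. HSP90AA1 and HSPH1 overlapped, and none of the 3 was called. No background share was computed for sums of genes. DNAJB genes summed to 693 ± 6.81 against 695 ± 5.86 CPM (SD, n = 3 each). What set these libraries apart was not tested.

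Exon number, which the choice of genes had not used, was also compared. In GENCODE v44 on GRCh37, 4 of the 31 tested members have a single exon, HSPA6, HSPA1A, HSPA1B and HSPA2, the last picked after its values were seen. HSPA2, an HSP70 known from the testis, had 1.72, 2.12 and 1.88 CPM with ADAR1 p110 and 1.53, 1.60 and 1.43 CPM with GFP. All 4 single-exon members had a log2 fold change above 0, and in 3 of them every ADAR1 p110 library lay above the GFP libraries, as in 33.6% of all tested single-exon genes and 12.5% of those with several exons. Single-exon HSPA1B overlapped. Of the 27 members with several exons 7 had an estimate above 0, and DNAJB1 was the 1 gene with all ADAR1 p110 libraries above the GFP libraries. Over all tested protein-coding genes, 73.1% of the 327 with a single exon had an estimate above 0, with a median log2 fold change of 0.15, against 48.4% of the 13266 with several exons, with a median of -0.01. The feature was therefore not particular to chaperones. It was noticed after the values were seen and carries no test.

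**Figure D5:**
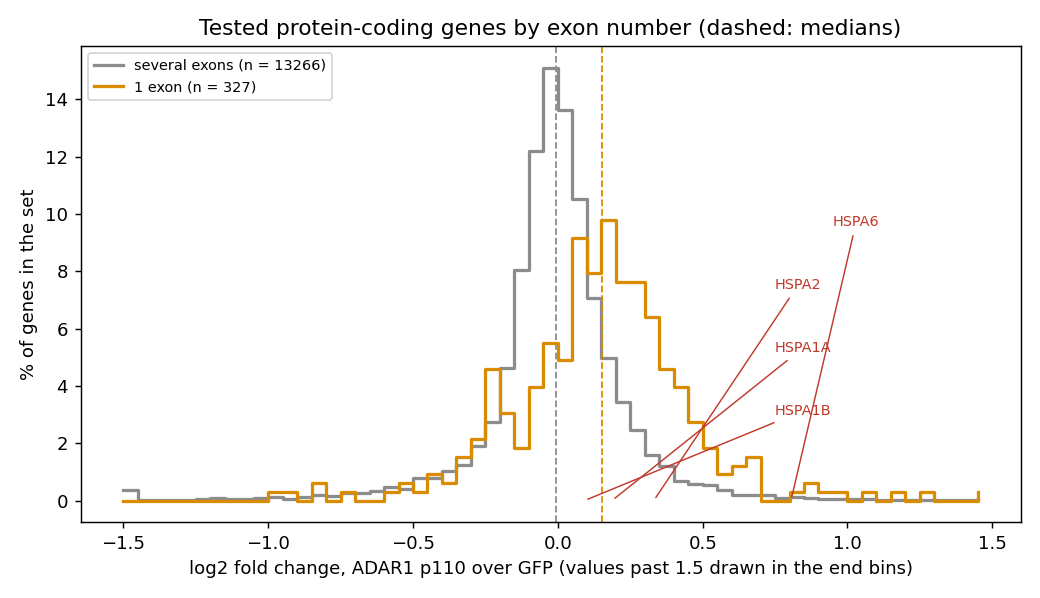
Distribution of the difference between ADAR1 p110 and GFP on the log2 scale (horizontal axis, in bins of 0.05) as a percentage of tested protein-coding genes (vertical axis) with a single exon (orange) and with several exons (grey), dashed lines marking the medians of 0.15 and -0.01. The single-exon chaperone genes HSPA1B, HSPA1A, HSPA2 and HSPA6 are marked at 0.09, 0.19, 0.33 and 0.80.

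Genes around the heat shock families were read from lists of the pathway. Of 103 tested genes outside the 40 members, 1 was called higher and 2 lower, with a median log2 fold change of -0.03. Among all tested genes 1.95% were called higher and 2.96% lower, so these counts are near that background. BAG1, an exchange factor that releases ADP from HSP70 and links it to the proteasome, rose. Its levels were 44.2, 44.5 and 43.8 CPM with ADAR1 p110 and 36.9, 36.1 and 36.1 CPM with GFP. The groups of BAG1 were far apart relative to their spread, at 0.28 on the log2 scale (SE 0.051, edgeR adjusted p = 0.00940), and the call was lost only without GFP replicate 3 (adjusted p = 0.0566) and with the replicate number as a block (0.0604). It was the 1 gene called among 13 exchange and BAG factors, a list that also holds HSPA4, HSPA4L and HSPH1. Both genes called lower were in the endoplasmic reticulum list. HSPA5, the HSP70 of that compartment (BiP), fell from 775 ± 42.2 to 589 ± 51.8 CPM (log2 fold change -0.39, edgeR adjusted p = 0.00788), and its exchange factor HYOU1 from 467 ± 7.40 to 409 ± 7.74 CPM (-0.19, adjusted p = 0.0389). The HSPA5 call held in each of its 15 alternatives, while that of HYOU1 was lost in 7. DNAJB9 and DNAJB11, J proteins of that compartment, were not called, at -0.17 and -0.15.

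In the remaining lists, from the heat shock factors to the mitochondrial partners, edgeR and limma-voom made no call, and DESeq2's Wald test made those named. Of all 18899 tested genes DESeq2 called 3.13% higher and 3.76% lower. Over only the genes to which it gave an adjusted p, its calls in both directions came to 8.55%. The share of all tested genes with an unadjusted edgeR p under 0.05 is not given here, so the counts at that cut below have no background beside them. HSF1 was at 89.5, 96.0 and 96.9 CPM against 97.6, 87.1 and 102 CPM, with a log2 fold change of -0.02, and none of 5 tested heat shock factor genes and binding partners was called by edgeR, DESeq2 or limma-voom, or had an unadjusted edgeR p under 0.05. Of 18 tested HSF1 targets outside the families edgeR called 0, with a median of -0.02. Of these, 4 had an unadjusted edgeR p under 0.05, all lower, and DESeq2 called ST13 lower. The most abundant per kilobase was the polyubiquitin gene UBB, at 1014 ± 81.3 against 993 ± 42.8 CPM. The 22 HSP90 cochaperones gave 0 edgeR calls, and DESeq2 called DNAJC7 and ST13 lower. Their 3 genes with an unadjusted edgeR p under 0.05, DNAJC7, FKBP5 and ST13, were all lower. FKBP5 and ST13 are also among the genes under that cut in the list before, so these counts share genes. CDC37, which brings kinases to HSP90, was at 231 ± 22.3 against 243 ± 13.1 CPM. EdgeR made no call among 29 tested DNAJC genes, 15 genes of the cytosolic chaperonin TRiC and prefoldin or 10 mitochondrial partners. Their medians were -0.03, -0.04 and 0.02. At an unadjusted edgeR p under 0.05, 2 DNAJC genes were higher and 3 lower. In TRiC and prefoldin 1 was higher and 2 lower, and 1 mitochondrial partner was lower. DESeq2 called DNAJC7 of the DNAJC genes and PFDN1 of the TRiC and prefoldin genes lower. Among the most abundant per kilobase, DNAJC9 gave -0.04, CCT5 -0.05 and YME1L1 -0.08.

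The 9 members below the count filter were nearly or wholly silent. DNAJB7 and DNAJB8, J proteins known from the testis, had 0 counts in all 6 libraries. HSPB2, HSPB3 and HSPB7, known from muscle, HSPB9, known from the testis, and HSPA12B, known from endothelium, had at most 4 counts in any library. HSPB6, a small heat shock protein of smooth muscle, had 2, 1 and 2 counts with ADAR1 p110 and 0 in each GFP library, all below the 3 counts that a count of 0 allows. DNAJA4, a class A J protein outside the list of heat-induced members, had 1, 10 and 10 counts against 6, 8 and 4. No fold change is given for these genes.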

How the data were processed

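Total RNA libraries from a stranded kit were aligned to hg19 with STAR 2.5.2a and counted with featureCounts 1.5.1, per the submitters' processing notes. The deposited values are raw counts per gene, with names, coordinates and gene length, per the file headers. How the counting treated strand, multiply aligned reads and duplicates is not given in the sources used here.

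Genes kept by filterByExpr (minimum count 10) were scaled by TMM and fitted across all genes with edgeR 4.0.16 in R 4.3.3 (glmQLFit, glmQLFTest, a design of group alone). Benjamini-Hochberg adjustment ran over every gene tested, and genes with an adjusted p under 0.05 were called. The SE is the log2 fold change over the square root of F, and the 95% intervals use the fit's degrees of freedom. Replicates of a group differed by more than sampling noise (chi-square per degree of freedom 8.78 to 40.8). The biological coefficient of variation was 8.00%. Alternatives used DESeq2 1.42.0, limma 3.58.1, other scalings and filters, copies summed, and libraries left out.

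Named genes were every called member, the most abundant member of each family, the heat-induced members and set constitutive ones, and up to 6 called genes of each pathway list or its most abundant gene. Members and lists were chosen with earlier results of these data known. Promoters are RefSeq's (GRCh38.p14), and coordinates of genes are those of the deposited table. Figures were drawn with matplotlib 3.10.9.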

Additional observations from a re-analysis of the deposited data

How the results depend on the processing

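The 25 named genes gave 376 comparisons with an alternative, of which 333 kept direction and side of the threshold. HSPA6, the 1 member called higher, was lost with limma-voom and with the replicate block (0 members each), and library size alone gave 2 members (DNAJB1 added). Leaving out each library in turn gave 0 to 1 members higher, the 1 being DNAJB1, and 0 to 1 lower, HSPA4L. With both ADAR1 p110 replicate 1 and GFP replicate 2 left out, 2 members were lower (HSPA4L, DNAJB12). Pathway genes called higher numbered 0 with the replicate block and 3 without those 2 libraries (1 in the main analysis), and 0 to 1 with each library left out. Those called lower (2 in the main analysis) numbered 1 with library size alone or the replicate block, 5 with no count filter (ST13, PFDN1 and ZFAND2A added) or with DESeq2 (ST13, PFDN1 and DNAJC7 added), 8 without the 2 libraries and 1 to 4 with each library left out. The labels do not say whether libraries with the same replicate number were handled together. Same-numbered deviations correlated at -0.204, -0.153 and 0.0997. Differently numbered ones correlated at -0.257 to 0.326, the highest being ADAR1 p110 replicate 1 with GFP replicate 2. Shared handling was not tested. The replicate block lowered the calls over all genes from 927 to 508. In all genes, calls rose to 1812 without ADAR1 p110 replicate 1 alone and to 2605 without both ADAR1 p110 replicate 1 and GFP replicate 2.

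Of the 376 values 19 turned sign, none of them from a called gene, 19 fell short of the threshold and 5 passed it anew. With library size alone HSPH1 was 0.019 and HSF1 0.0016. Without both libraries DNAJB4 was -0.052, HSPE1 -0.0055 and CCT5 0.0053. Across single libraries left out, log2 fold changes ranged for HSPD1 from -0.051 to 0.0036, for HSPA8 from -0.036 to 0.085, for HSPH1 from -0.072 to 0.059, for DNAJB4 from -0.044 to 0.048, for HSF1 from -0.080 to 0.031, for UBB from -0.022 to 0.090, for CDC37 from -0.132 to 0.00032, for DNAJC9 from -0.067 to 0.0012 and for CCT5 from -0.089 to 0.031. The cause was not tested.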

Other observations

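Protein-coding genes with a single exon had higher estimates as a class with ADAR1 p110, well beyond the chaperones among them. Of 327 tested single-exon genes, 12.2% were called higher and 1.22% lower by edgeR, against 2.18% and 3.94% of 13266 genes with several exons. Replication-dependent histone genes have a single exon, and with all histone genes set aside 8.19% of 281 single-exon genes were still called higher, with a median log2 fold change of 0.12. The median deviation of single-exon genes from the mean of the 6 libraries on the log2 scale came to 0.05, 0.10 and 0.06 for the ADAR1 p110 libraries and to -0.09, -0.04 and -0.05 for the GFP libraries, so the groups did not overlap. Across the 15 alternatives the median log2 fold change stayed between 0.15 and 0.19 with histone genes and between 0.12 and 0.15 without them, while the share called in the higher direction ran from 2.75% to 26.3% and from 1.07% to 19.6%. Exon numbers are those of the canonical transcript in GENCODE v44, an annotation later than the one counted, and 106 protein-coding genes were not matched. This class was looked at after the values of HSPA6, HSPA1A and HSPA2 were seen, and what sets it apart was not tested.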
